A study of Homo sapiens with 4 samples.

Results

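The genes described here build and steer the carriers of the secretory and endosomal pathways: the ER translocon, the COPII and COPI coats, the adaptor complexes, the VPS sorting proteins, the V-ATPase, the sorting nexins, and the syntaxin and VAMP fusion proteins. They were chosen by gene name alone, as every entry of 2 m7G peak lists whose name begins with SEC, VPS, SNX, STX or VAMP and a digit, with ATP6V, with COP and the letter of a coat subunit, or with an adaptor subunit name such as AP3S1. This gave 28 of 3355 peaks (25 of 2511 genes) in replicate 1 and 50 of 4747 peaks (39 of 3205 genes) in replicate 2. Together these were 45 genes, out of 3769 that had a peak in at least 1 list.

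The samples were untreated HepG2 cells, an established human hepatocellular carcinoma line, with 2 samples of poly(A) RNA immunoprecipitated with an anti-m7G antibody (the IP samples) and 2 input samples that received no antibody. Each IP sample has a list of peaks, stretches of mRNA that the authors called as enriched, each with the authors' own fold enrichment and p-value. Input values were not analysed here, so a peak's fold cannot be recomputed, no test between conditions was possible, and everything below describes the lists. Read depth is unknown and mRNA levels were not measured here. Whether separate cultures were used for the IP samples is not stated in the labels, so the spread between the lists may be technical. Of 16 hepatocyte markers, 8 had peaks in both lists (APOA1, APOB, APOE and SERPINA1 among them), while the other 8 had none, ALB, AFP and HNF4A among them. Of 6 immune markers 2 had peaks (CD68 and LYZ), as did 1 of 6 endothelial and stellate markers (ACTA2).

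Newly made secretory and membrane proteins enter the ER through the Sec61 channel and leave it in COPII vesicles, and COPI vesicles bring escaped proteins back. Beyond the Golgi, adaptor complexes choose cargo for clathrin and other coats, sorting nexins and VPS complexes sort it at endosomes, the V-ATPase acidifies these compartments, and paired SNARE proteins fuse carriers with their targets. N7-methylguanosine forms part of the cap at the 5' end of every mature mRNA and also occurs inside some RNAs, and an antibody against it can bind both.

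The peaks that began closest to an annotated gene start are placed on the RefSeq sequence (GRCh38.p14) around that start, since the cap is added to the first transcribed base. The 8 genes shown had a peak that began within 20 nt of the start in at least 1 list, and a window in the RefSeq table. Capitals mark the first 10 transcribed bases, and lower case the 20 bases before them, both read 5' to 3' on the strand of the gene.
ATP6V0C: cgccccggcgcgagaccggtCCAACGCTGC
SEC23A: ccccgtcccctcctcttgacGTGGCAGAGG
SNX1: cgctatctctcgataaagttGTTGTTGCGG
SNX9: actgcaggagcgtgcggcgcGGGAGTAGCC
ATP6V0B: acgctgcggggcgggcggacAGACTGCGGG
SEC61B: ccgggggcggggcctgagtcAGTCTCGCCA
STX16: tccggggctgagctgcagtcAGATCCGGGG
SNX3: gcccgctctacgtgctcgttCTCTTCGCGA

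ATP6V0C lies at chr16:2513706-2513735 (plus strand), SEC23A at chr14:39103226-39103255 (minus strand), SNX1 at chr15:64095962-64095991 (plus strand) and SNX9 at chr6:157823226-157823255 (plus strand). ATP6V0B lies at chr1:43974940-43974969 (plus strand), SEC61B at chr9:99222262-99222291 (plus strand), STX16 at chr20:58651263-58651292 (plus strand) and SNX3 at chr6:108261031-108261060 (minus strand). In ATP6V0C and STX16 the peak began exactly at the annotated start. In SNX1 it began 8 nt before it, in ATP6V0B 13 nt and in SNX9 15 nt before it, while in SEC61B, SEC23A and SNX3 it began 6, 7 and 18 nt after it. VPS37C and AP1M1 also had peaks that began within 20 nt of the start, and are named only.

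Windows were matched for 16 of the 19 genes with a peak midpoint or 5' boundary within 200 nt of the start. The first base was G in 7, C in 5 and A in 4 of them. Over all 1340 matched genes with such a peak, 46.9% began with G, 13.6% with C and 38.7% with A. The share with C was 31.2% for the coat, sorting and V-ATPase genes, a count of only 5. The median G+C content of the first 50 transcribed bases was 73.0%, against 74.0% for all genes with such a peak and 64.0% for all 15843 matched protein-coding genes. In the 250 bases before the start, on either strand, the GC box letters GGGCGG occurred in 13 of 16 genes (81.2%), against 81.0% of all genes with such a peak. CCAAT occurred in 4 of 16 (25%, against 33.7%). TATAAA occurred in 0 of 16, which allows a share of up to 18.8%, against 3.28%. None of these searches shows binding of a factor.

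The first comparison asked which of these mRNAs were enriched in each IP sample. Peaks were present in both lists for 19 genes, 42.2% of the 45 (95% Wilson interval 29.0 to 56.7%), beside 51.7% of all 3769 genes with a peak. They made up 76.0% of the replicate 1 genes (56.6 to 88.5%), beside 77.5% for all genes, and 48.7% of the replicate 2 genes (33.9 to 63.8%), beside 60.7%. Each of these shares had the value for all genes inside its interval. Another 6 genes had peaks in replicate 1 only and 20 in replicate 2 only, the list that was longer overall. The intervals cover counting error only, and genes are not replicates.

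By complex, AP-5 and the tethering complexes GARP and EARP had peaks in both lists for every gene with a peak. These were only 2 genes each, AP5B1 and AP5Z1, and VPS53 and VPS54. The peaks of AP5Z1 and of VPS53 did not overlap between the lists. COPI, AP-1, AP-2 and AP-3 each had 1 of 2 genes in both lists. The sorting nexins had 5 of 12 genes in both lists and ESCRT 2 of 4. The V-ATPase had 1 of 4, the syntaxins and VAMPs 1 of 5, COPII 1 of 3, and the Sec61 translocon 0 of 3. A written list of 175 genes that the name rule covers left 130 genes without a peak in either list. Among these were all 8 VPS genes grouped here with the HOPS and CORVET tethers, VPS33B included, and the 4 genes of AP-4. The 4 VPS13 lipid transfer genes, the 6 SEC14-like genes and the 3 SEC22 genes were also among them. They also included 12 of 13 genes of the V1 sector of the V-ATPase, its cytosolic ATP-hydrolysing part, and VPS72, which shares the name but is a chromatin protein. Most genes lacked a peak in these data: of 15843 protein-coding genes with a matched start window, 2922 had a peak in at least 1 list. A lack of peaks is therefore not particular to these complexes. The 175 genes were not limited to those with a matched start window. Among those that had one, 16 had a peak at the 5' end, 24 had peaks elsewhere only and 104 had none. A gene without a peak may lack m7G enrichment or may be weakly expressed, and these cannot be told apart here.

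**Figure D1:**
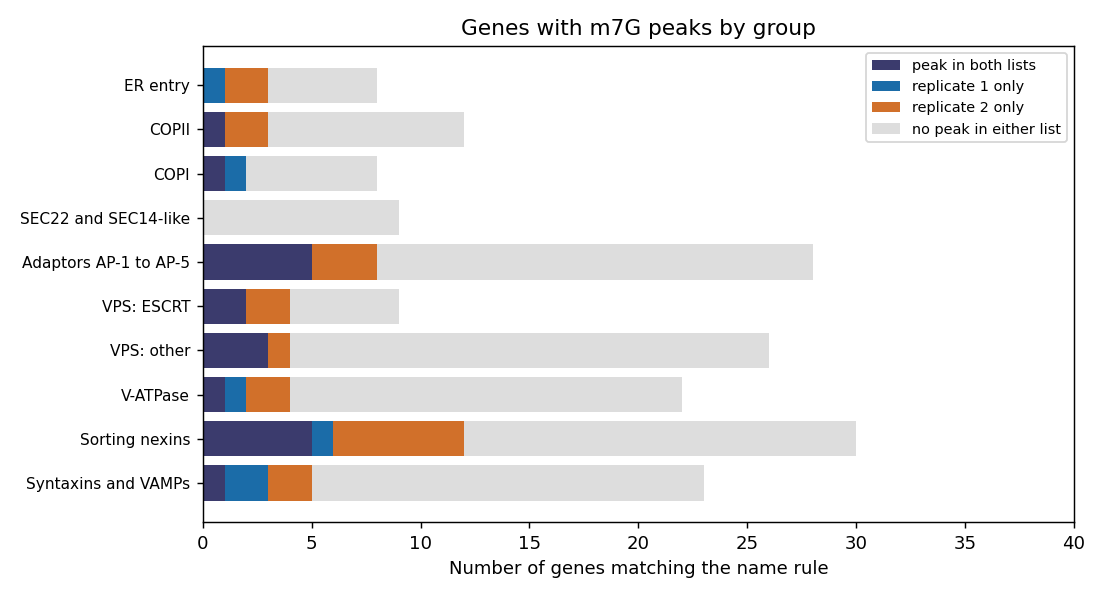
Number of genes covered by the name rule in each group (horizontal axis), split into genes with a peak in both lists, in replicate 1 only, in replicate 2 only and in neither. Sorting nexins gave the most genes with a peak (12 of 30) and the SEC22 and SEC14-like group gave 0 of 9. Of 15843 protein-coding genes with a matched start window, 2922 had a peak, while the groups shown were not limited to genes with such a window.

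At the level of sites, 16 of 28 replicate 1 peaks (57.1%, 39.1 to 73.5%) shared at least 50% of the shorter peak with a replicate 2 peak of the same gene, beside 65.1% of all replicate 1 peaks. In replicate 2, 16 of 50 peaks were shared (32%, 20.8 to 45.8%), beside 45.4% of all peaks. The 16 shared peaks lay in 15 genes. In the remaining 4 genes with peaks in both lists, AP1M1, AP5Z1, VPS37B and VPS53, the peaks of the 2 lists did not overlap. Some were close neighbours: in AP1M1 the replicate 1 peak ended at 16198033 and the replicate 2 peak began at 16198063. In AP5Z1 the replicate 2 peak ended at 4785449 and the replicate 1 peak began at 4785548. Peaks of replicate 2 without a partner had a median -log10 p of 4.25 and a median length of 91 nt, against 6.03 and 181 nt for its shared peaks. All peaks of replicate 2 divided the same way, 4.20 and 120 nt without a partner against 7.93 and 210 nt for shared peaks.

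The 16 shared peaks had folds between 1.18 and 25.3, and 12 of them (75%) lay within 1.5 times of each other in the 2 lists, as did 72.6% of all 2128 shared peaks. None differed by more than 2 times, which for 0 of 16 allows a share of up to 18.8%, beside 10.8% of all shared peaks. The ranks of the folds matched with a Spearman's rho of 0.92 over these 16 peaks and 0.80 over all shared peaks, a description over peaks that may share an input library. Identical blocks were listed in both replicates for 5 of the 16 (31.2%, beside 10.3% of all shared peaks): the 5' peak of ATP6V0C, and the peaks of SEC23A, VPS54, AP2B1 and SNX15. The 5' boundary was the same for 10 of 16 (62.5%, beside 33.4%). These shares rest on only 16 peaks, and their difference from all shared peaks was not tested.

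**Figure D2:**
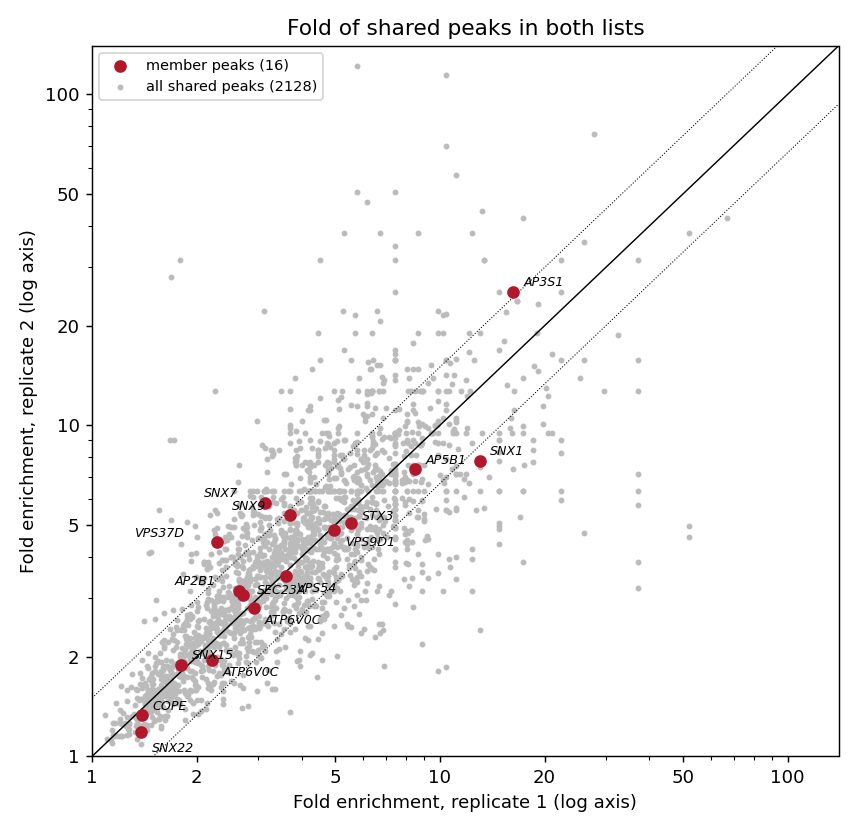
Fold enrichment in replicate 1 (horizontal, log axis) and replicate 2 (vertical, log axis) of the 16 shared member peaks (large points, named) and of all 2128 shared peaks (small points). The solid line marks equal folds and the dotted lines 1.5 times in either direction; SNX1, SNX7, VPS37D and AP3S1 lie outside the dotted lines.

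The median fold was 3.66 in replicate 1 and 3.83 in replicate 2, beside 3.71 and 3.87 for all peaks of those lists. Folds above the upper quartile of the list were found for 6 of 28 and 10 of 50 peaks, and folds below the lower quartile for 6 and 9. The folds ranged from 1.12 to 16.2 and from 1.18 to 25.3, while those of all peaks reached 66.8 in replicate 1 and 122 in replicate 2. The results below follow the complexes along the pathway.

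**Figure D3:**
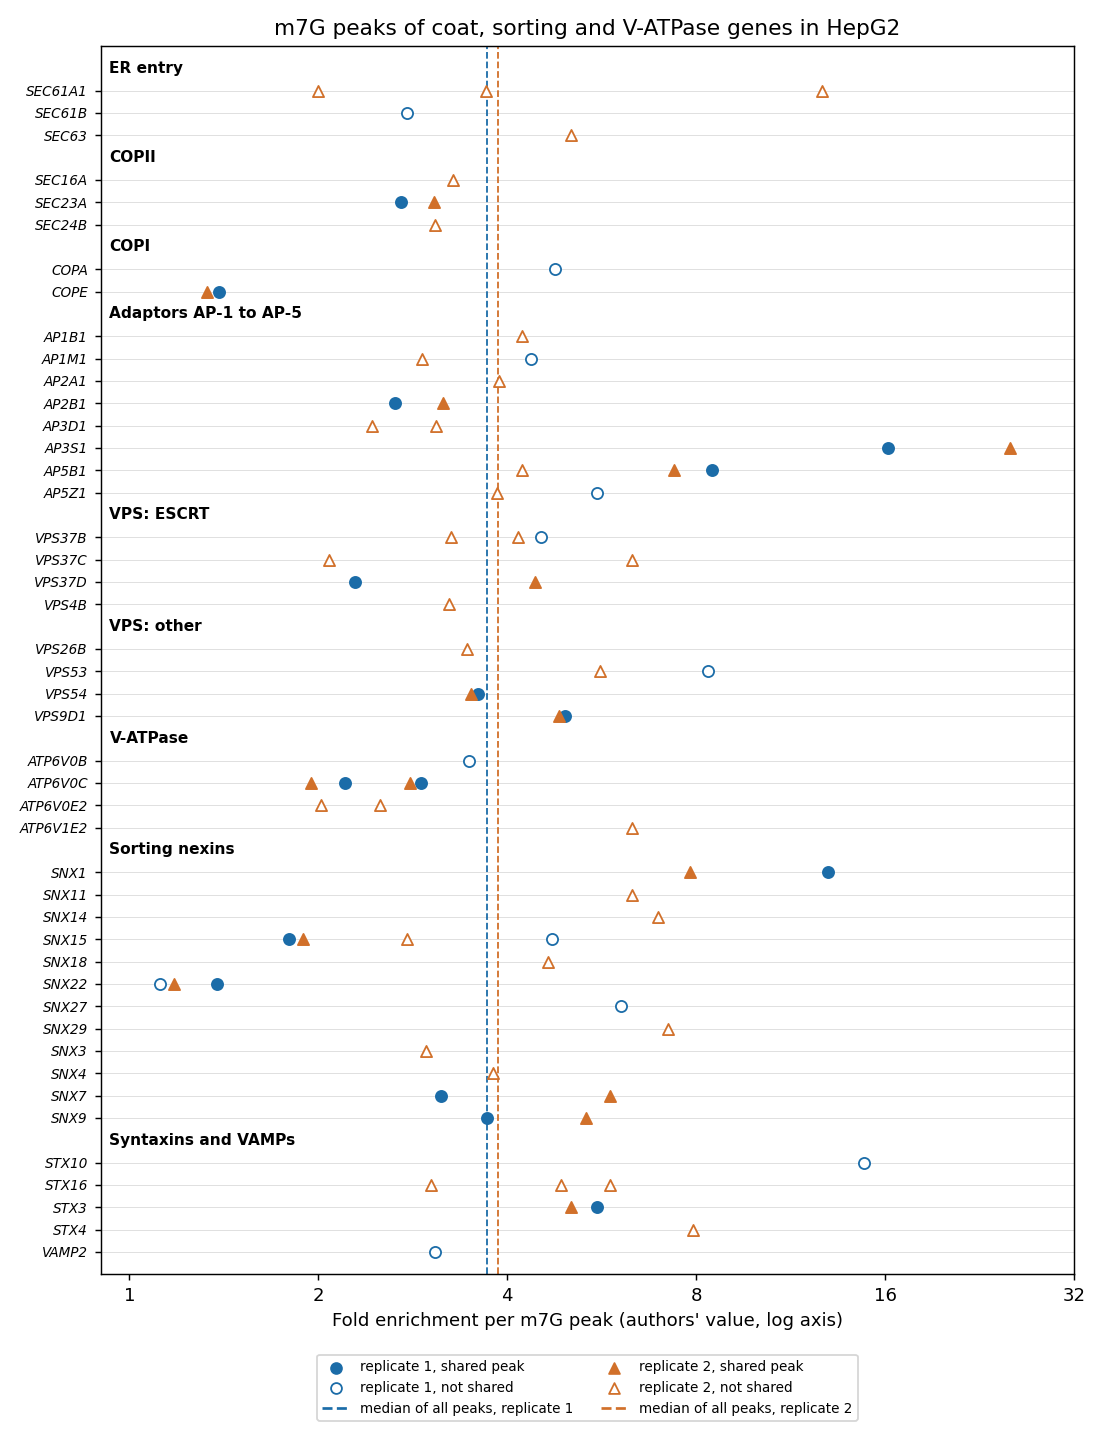
Fold enrichment of every peak (horizontal, log axis) for the 45 genes (rows, by group); circles are replicate 1, triangles replicate 2, and filled symbols are peaks shared between the lists. Dashed lines mark the median of all peaks of each list, 3.71 and 3.87; AP3S1 lies farthest to the right, and SNX22 and COPE farthest to the left.

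The ER translocon had peaks in 3 of 6 genes, none of them in both lists. SEC61A1, the channel-forming subunit, had 3 peaks in replicate 2 and 0 in replicate 1. The peak nearest to its 5' end was spliced over 3 blocks on chromosome 3 from 128052369 to 128055525, began 728 nt into the gene and had a fold of 12.7. The other 2 lay close to the 3' end (chr3:128070968-128071117 and chr3:128071474-128071683), with folds of 2.0 and 3.7, and the second of these had the largest -log10 p of the gene, 17.9. SEC61B, the small tail-anchored subunit, had a peak in replicate 1 only (chr9:99222288-99222615), with a fold of 2.77 and a -log10 p of 10.4. SEC63, which recruits the chaperone BiP to the channel, had a peak in replicate 2 only (chr6:107958008-107958098), which began 110 nt from the 5' end with a fold of 5.06.

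Of 12 COPII genes, 3 had peaks. SEC23A, the inner coat subunit that activates the GTPase SAR1, had the same peak in both lists. Spliced on chromosome 14 from 39096127 to 39103228, it covered 210 nt, began 7 nt from the 5' end, and had folds of 2.71 and 3.06 with -log10 p of 14.5 and 14.7 in replicates 1 and 2. SEC24B, a cargo-binding subunit, had a fold of 3.07 and SEC16A, the scaffold of ER exit sites, a fold of 3.28, both in replicate 2 only. An antisense gene, SEC23A-AS1, also spans the SEC23A peak.

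In the COPI coat, COPE, the epsilon subunit, had the lowest pair of folds after SNX22, 1.39 in replicate 1 and 1.33 in replicate 2. On the minus strand of chromosome 19, its peak ran from 18899574 to 18899663 in replicate 1 and from 18899574 to 18899693 in replicate 2, so that its 3' boundary was the same, with midpoints 105 and 120 nt from the 3' end. COPA, the alpha subunit, had a peak in replicate 1 only (chr1:160289067-160289127), with a fold of 4.77 and a midpoint 503 nt from the 3' end. The other 6 COPI genes had no peak.

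The adaptor complexes held both the highest folds and several moderate ones. AP3S1, the small subunit of AP-3, which sends cargo to lysosomes and related organelles, had folds of 16.2 in replicate 1 and 25.3 in replicate 2, with -log10 p of 21.7 and 12.5. The peak ran on chromosome 5 from 115841695 to 115842083 in replicate 1, and from 115841666 to a second block ending at 115852985 in replicate 2. It was unusual in its place, since it began 240 and 269 nt before the annotated gene span.

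On the opposite strand, a listed peak of ATG12, an autophagy gene transcribed in the other direction, overlapped the same bases. It covered 121 nt in replicate 1 (fold 5.77) and 181 nt in replicate 2 (fold 50.6), and all of these bases also lay in the AP3S1 peak. The ATG12 peaks began 256 and 286 nt before the annotated start of ATG12 and, at these lengths, also ended before it. They thus lay wholly outside the annotated ATG12 span. These shared bases ended at 115841821 in replicate 1 and at 115841851 in replicate 2, which is also before the annotated AP3S1 span. They therefore lay in neither annotated gene. The first block of the AP3S1 peak reached 148 nt into the AP3S1 span in replicate 1 and 171 nt in replicate 2. Libraries were made with a stranded kit, but how strand was used in calling peaks is not given in the sources used here, so reads of the opposite strands cannot be told apart in these peaks. Peaks that share bases with a listed peak of another gene numbered 3 of 28 in replicate 1 (10.7%, beside 2.68% of all peaks) and 2 of 50 in replicate 2 (4.0%, beside 2.17%), all in AP3S1 and SNX22.

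AP3D1, the delta subunit of AP-3, had 2 peaks in replicate 2 only, with folds of 2.44 and 3.08. AP5B1 and AP5Z1 belong to AP-5, a late endosomal adaptor. AP5B1 had a shared peak that began 1143 and 1083 nt into the gene on chromosome 11, from 65779773 to 65779833 in replicate 1 and from 65779713 to 65779893 in replicate 2, with folds of 8.48 and 7.38, and a further peak in replicate 2 with a fold of 4.22. AP5Z1 had folds of 5.56 in replicate 1 and 3.85 in replicate 2, at neighbouring peaks that did not overlap.

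AP-2 gathers cargo for endocytosis at the plasma membrane. AP2B1, its beta subunit, had an identical peak of 120 nt in both lists on chromosome 17 from 35725462 to 35725581, 891 nt from the 3' end, with folds of 2.65 and 3.16. AP2A1, an alpha subunit, had a fold of 3.88 in replicate 2 only. AP-1 works between the Golgi and endosomes. AP1M1, its mu subunit, had a peak 3 nt from the 5' end in replicate 1 (chr19:16197914-16198033, fold 4.36). The peak of replicate 2 (chr19:16198063-16203603) began 152 nt from that end and continued in another exon (fold 2.93). AP1B1 had a fold of 4.22 in replicate 2 only.

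ESCRT complexes bud vesicles into endosomes. VPS37B, VPS37C and VPS37D are alternative subunits of ESCRT-I. The shared peak of VPS37D started at 73671308 on chromosome 7 and reached 73671546 in replicate 1 and 73671605 in replicate 2. Its folds were 2.29 and 4.43, a ratio of 0.517 (replicate 1 over replicate 2), the lowest such ratio among the 16 shared peaks. VPS37B had a fold of 4.53 in replicate 1, and folds of 4.16 and 3.26 in replicate 2 at peaks elsewhere in the gene. VPS37C had peaks in replicate 2 only, 1 that began 18 nt before the 5' end (chr11:61138799-61161444, fold 6.33) and 1 far downstream (chr11:61132199-61132289, fold 2.08). VPS4B, an ATPase that takes ESCRT-III apart, had a fold of 3.23 in replicate 2 only.

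VPS54, the subunit particular to the GARP tether, had an identical spliced peak in both lists on chromosome 2 from 63984012 to 64019080, with folds of 3.6 and 3.5 and -log10 p of 9.04 and 8.54. VPS53, which GARP and EARP share, had folds of 8.35 in replicate 1 and 5.62 in replicate 2, but its peaks lay at different sites, chr17:515235-515415 and chr17:516555-516645, 6657 and 7932 nt from the 3' end. VPS9D1, named for a domain found in activators of Rab5-type GTPases, had folds of 4.95 and 4.84 at a shared peak on chromosome 16 from 89710743 to 89710923 in replicate 1 and from 89710684 to 89711328 in replicate 2. VPS26B, a retromer subunit, had a fold of 3.45 in replicate 2 only.

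In the V-ATPase, peaks lay mostly in genes of the membrane sector V0, through which protons pass. ATP6V0C, which forms the proton-carrying ring, was the only gene of the set with 2 shared peaks. The first was spliced, ran on chromosome 16 from 2513726 to 2514175 in both lists, and began at the annotated start, with folds of 2.92 and 2.80. The second, near the 3' end, ran from 2519698 to 2520048 in replicate 1 and from 2519757 to 2520019 in replicate 2. It had low folds, 2.21 and 1.95, with the largest -log10 p of all 78 peaks, 32.8 and 28.2. ATP6V0B, another ring subunit, had a spliced peak at its 5' end in replicate 1 only (chr1:43974947-43976108, fold 3.48, -log10 p 10.8). ATP6V0E2, a small V0 subunit, had folds of 2.51 and 2.02 at 2 peaks of replicate 2. ATP6V1E2, an isoform of a stalk subunit, was the only V1 gene with a peak, in replicate 2 only (fold 6.33).

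Sorting nexins bind phosphoinositides on endosomes, and 12 of 30 had peaks. SNX1, which bends membranes into tubules, had the second highest pair of folds in the set, 13.0 in replicate 1 and 7.82 in replicate 2, with -log10 p of 14.7 and 22.6. Its spliced peak on chromosome 15 began at 64095974 in both lists and ended at 64112583 and 64112613. SNX9, which acts with dynamin in endocytosis, had folds of 3.71 and 5.35 at its 5' end, on chromosome 6 from 157823231 to 157823320 in replicate 1 and to 157823380 in replicate 2. SNX7 had folds of 3.14 and 5.84 at a peak that began 420 nt from the 5' end, at chr1:98661739-98661828 in replicate 1 and chr1:98661739-98661887 in replicate 2.

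SNX15 had an identical peak near the 3' end in both lists (chr11:65040184-65040244), with folds of 1.80 and 1.89. It also had a 5' peak in replicate 1 (chr11:65027468-65027587, fold 4.72) and an internal peak in replicate 2 (chr11:65038672-65038732, fold 2.77). The readthrough gene ARL2-SNX15 overlaps all of these. SNX22 had the lowest folds of the set, 1.12 and 1.38 in replicate 1 and 1.18 in replicate 2. Its peaks shared between 100 and 147 nt with listed peaks of PPIB, the ER cyclophilin B gene on the opposite strand, whose folds there were 1.21 and 1.15 in replicates 1 and 2. As for AP3S1, reads of the overlapping genes cannot be told apart.

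The remaining sorting nexins had peaks in 1 list. SNX27, which returns receptors from endosomes to the cell surface, had a fold of 6.07 in replicate 1 only. In replicate 2 only, the highest folds were those of SNX29 (7.23), SNX14 (6.96) and SNX11 (6.33), followed by SNX18 (4.64), SNX4 (3.80) and SNX3 (2.97). The peaks of SNX14 (chr6:85593650-85593799), SNX4 (chr3:125520065-125520154) and SNX3 (chr6:108260874-108261022) began 59, 48 and 18 nt from the 5' end. That of SNX29 (chr16:12570636-12570726) lay 3606 nt from the 3' end of a gene that extends far upstream.

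Syntaxins and VAMPs are SNARE proteins. STX3, a syntaxin of the apical plasma membrane, had the only shared peak of this group, on chromosome 11 from 59755387, ending at 59755567 in replicate 1 and 59755596 in replicate 2. Its folds were 5.56 and 5.06. STX10, of the trans-Golgi network, had a spliced 5'-end peak in replicate 1 (chr19:13149808-13150315) with a fold of 14.8 and a -log10 p of 12.0, and no peak in replicate 2. STX16, of the same compartment, had the opposite, 0 peaks in replicate 1 and 3 peaks in replicate 2 that began 0, 389 and 568 nt from the 5' end (chr20:58651283-58651432, chr20:58651672-58651791 and chr20:58651851-58652031), with folds of 4.87, 5.84 and 3.03. STX4, of the plasma membrane, had a fold of 7.91 in replicate 2 only, and VAMP2, known as a synaptobrevin, a fold of 3.07 in replicate 1 only.

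Further peaks overlapped another annotated gene that had no listed peak on the same bases. STX16-NPEPL1 overlaps all 3 peaks of STX16, and RUVBL1 overlaps the 2 downstream peaks of SEC61A1. FUZ lies at the peak of AP2A1, RHOQ at that of ATP6V1E2, NCAPD3 at that of VPS26B and RFPL1 at that of AP1B1. LOC107985219 lies at the peak of COPA and SNX29-AS3 at that of SNX29.

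The position of the peaks was compared with that of all peaks. The midpoint lay before the 5' end of the gene or in its first 200 nt for 9 of 28 peaks in replicate 1 (32.1%, 17.9 to 50.7%), beside 27.4% of all peaks. In replicate 2 it lay there for 12 of 50 (24.0%, 14.3 to 37.4%), beside 21.7%. Midpoints within 200 nt of the 3' end numbered 1 (3.57%, beside 3.52%) and 2 (4.0%, beside 3.46%), those of COPE in both lists and of SEC61A1 in replicate 2. These shares were close to the background of all peaks.

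Spliced peaks can carry their midpoint across an intron, and by the 5' boundary 10 of 28 (35.7%, beside 36.4% of all peaks) and 15 of 50 (30.0%, beside 30.8%) began within 200 nt of the 5' end. This measure, chosen after the midpoints were seen, adds the 5' peak of ATP6V0C in both lists, and SEC24B and AP1M1 in replicate 2. Spliced peaks were 7 of 28 (25%, beside 26.4%) and 13 of 50 (26.0%, beside 28.2%).

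**Figure D4:**
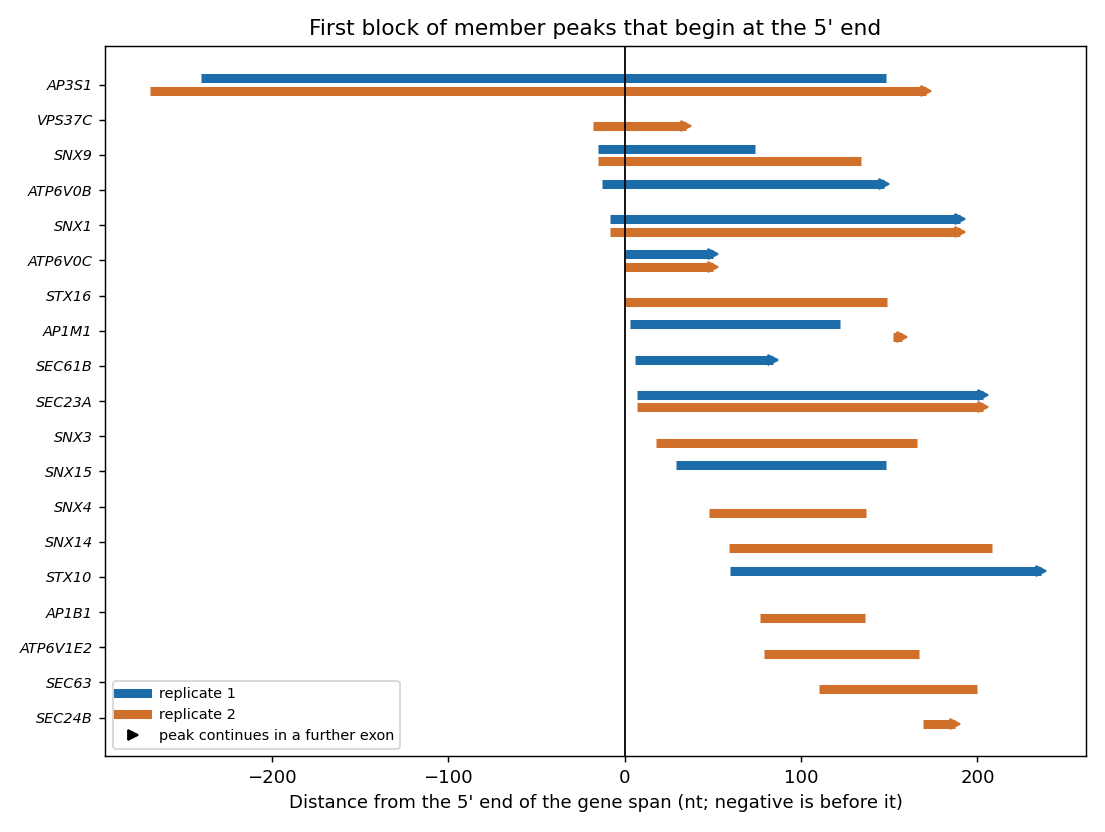
First block of each peak that began within 200 nt of the 5' end of the gene span or before it (horizontal axis, nt from that end, negative before it), for 19 genes (rows) in replicate 1 (upper bar) and replicate 2 (lower bar). Arrowheads mark peaks that continue in a further exon; AP3S1 begins far before the start, and ATP6V0C, SEC23A, SNX1 and SNX9 begin at the same base in both lists.

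Within the set, 5'-end peaks had a median fold of 4.36 in replicate 1 (9 peaks), against 3.14 for the other 19 peaks. In replicate 2 the medians were 5.21 (12 peaks) and 3.37 (38 peaks). Over all peaks the medians were 4.95 and 3.40 in replicate 1, and 4.92 and 3.61 in replicate 2. The set holds 5'-end folds from 2.71 (SEC23A) to 16.2 (AP3S1) in replicate 1 and from 2.97 (SNX3) to 25.3 (AP3S1) in replicate 2. Folds of the other peaks ran from 1.12 to 8.48 and from 1.18 to 12.7, so the ranges overlapped in both lists. The 5'-end peaks of AP3S1, STX10 (14.8) and SNX1 (13.0) in replicate 1, and of AP3S1 in replicate 2, lay above all the others. Peaks of 1 gene share their mRNA, and only called peaks enter these medians.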

How the data were processed

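Peaks of the 2 IP samples were used as the authors deposited them, 1 list per sample, with coordinates given here counted from 1. Per the submitters' processing notes, STAR and GRCh38 were used, with no version or role stated; the sources used here name no peak caller and no input for the fold. The deposited p-value per peak is the authors' own. Its log10 and the log10 FDR, deposited as scores, are given with the sign turned; the weakest FDR had a -log10 of 1.32 in both lists. The fold enrichment is the authors' ratio for each peak, with no scaling stated in the file headers.

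Names were matched to RefSeq genes of GRCh38.p14 by symbol, as all 78 member peaks were; over both lists, 139 and 199 other peaks were matched through synonyms in the same region, and 3 and 8 unmatched peaks were left out of positions. Peaks were shared when same-strand peaks of a gene overlapped in exon blocks by 50% of the shorter peak, then paired by largest overlap. Distances run along the genome to the ends of the gene span. Matching was tested on simulated data with planted overlaps. Intervals are 95% Wilson intervals. No test was run: the design leaves 2 lists of 1 group.

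The members, gene lists and measures were chosen with earlier results of these data known. All genes with a listed peak are named by complex, with coordinates for up to 2 genes per complex with the highest lower fold and for most other peaks whose distance from a gene end is given. Alternatives were a stricter list, other overlaps, a window of 500 nt, shared peaks, each replicate alone and, added later, the 5' boundary and peaks without overlap of another gene's peak. Tools were pandas 2.3.3 and numpy 2.4.6 for tables, scipy 1.17.1 for intervals and matplotlib 3.10.9 for plots, under Python 3.11.15.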

Additional observations from a re-analysis of the deposited data

How the results depend on the processing

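Genes with a peak in both lists were 42.2% of the set by name and 20% when 80% reciprocal overlap of a peak was asked for; fewer pass by construction. The mean share of shared peaks was 44.6% ± 17.8 (SD, n = 2) and 25.1% with 80% reciprocal overlap. Both shares rest on the same 16 shared peaks, over 28 peaks in replicate 1 and 50 in replicate 2. This SD therefore reflects the lengths of the lists and not independent spread. The mean share of peaks at the 5' end was 28.1% ± 5.76 (SD, n = 2). It was 39.4% with a window of 500 nt, wider by construction, and 38.6% for the 50% of peaks per list that had the lowest p. The cause was not tested, and no share over all peaks is given here for these settings. Over all peaks, 5'-end peaks had a median -log10 p of 6.0 in replicate 1, against 5.3 for the others. In replicate 2 these medians were 5.6 and 4.99. The mean of the median folds was 3.74 ± 0.12 (SD, n = 2), and 3.5 for shared peaks only, where the cause was not tested. Leaving out either replicate gave a 5' share between 24.0 and 32.1%, a median fold between 3.66 and 3.83 and a spliced share between 25 and 26.0%. The other alternatives, those added after seeing the data among them, moved these values by less than the spread between the lists or the Wilson interval. That interval was wide for genes with a peak in both lists, 29.0 to 56.7%. Their share fell to 30.4% (7 of 23) for the 50% of peaks per list with the lowest p. It was 33.3% (15 of 45) when a peak shared by 50% of the shorter peak was asked for. Without peaks that overlap a peak of another gene, the median fold was 3.77 and the share of shared peaks 42.6%. No paired analysis was possible because no input values were analysed. The unknown depth bounds which peaks the authors could call.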

Other observations

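Fold values recurred within the lists, and some folds of the set fell on the commonest value or its whole multiples. Those of AP3S1 (16.2) and SNX1 (13.0) in replicate 1, among the highest of the set, did not. The commonest fold was 7.42 in replicate 1 (107 peaks) and 6.33 in replicate 2 (196 peaks). STX10 in replicate 1 (fold 14.8), and AP3S1 (25.3), SEC61A1 (12.7), SNX11, VPS37C and ATP6V1E2 (6.33 each) in replicate 2, were whole multiples, by up to 10, of that commonest value within the rounding of the deposited values. These were 1 of 28 peaks of the set in replicate 1 (3.57%, beside 5.16% of all peaks) and 5 of 50 in replicate 2 (10.0%, beside 6.93%). Of these 6 genes, AP3S1 alone had a shared peak. The cause was not tested.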
